A study of Mus musculus with 6 samples.

Results

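DDX and DHX proteins are RNA helicases named for the DEAD or DEAH letters of a conserved motif that binds and hydrolyses ATP. DEAD-box members mostly pry apart short duplexes or hold RNA as a clamp, and DEAH-box members mostly travel along a strand, so that together they remodel RNA and RNA-protein complexes at nearly every step from transcription to decay. In pluripotent cells, which divide quickly, many of them serve ribosome assembly and splicing. Here they were followed in mouse epiblast-like cells (EpiLCs), which model the epiblast once the embryo has implanted, and in the embryonic stem cells (ESCs) of the naive state that precedes them. Members were the rows of the expression table whose gene name is Ddx or Dhx followed by a number and at most 1 letter. That gave 52 of 78298 genes, 36 Ddx and 16 Dhx. No expression value enters that rule. Helicases of the same families filed under other names, such as the Eif4a genes and Rigi, are therefore not members and are treated as partners.

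Poly(A) RNA was sequenced from 3 EpiLC and 3 ESC libraries of wild-type genotype, all from the line that the labels name BVSC clone H18, so 1 clone stands for each state. The names of all 6 columns also carry a dose tag, 0uM, with no agent named in the sources used here. Labels mark the libraries as biological replicates but give no detail of the cultures, and p-values therefore measure the spread between these libraries, which may be technical. Values are TPM, abundances corrected for length that add up to 1000000 in each library. How many reads lie behind a value is unknown. Each difference subtracts the ESC mean from the EpiLC mean of log2(TPM + 1), so changes of genes near 1 TPM are understated.

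The 2 states carried their labels' markers. All 8 ESC markers fell, with a summed level of 79.6 to 98.6 TPM in EpiLC libraries against 1019.6 to 1105 TPM in ESC libraries. All 7 EpiLC markers rose, with a summed level of 835 to 1120.2 TPM in EpiLC libraries against 36.0 to 38.5 TPM in ESC libraries. Fibroblast or feeder markers summed to 13.4 to 16.6 TPM in EpiLCs and 3.19 to 5.72 TPM in ESCs, mostly Thy1, with Dcn at 1.46 to 3.00 TPM in EpiLCs and listed at 0 in all ESC libraries, and with Postn and Lum at most 0.0534 TPM. Neuroectoderm markers, mostly Tubb3 and Sox1, summed to 44.0 to 54.2 TPM in EpiLCs and 9.65 to 9.94 TPM in ESCs, and primitive endoderm, trophoblast and mesoderm markers summed to at most 12.7 TPM in any library. The part of these lists in the helicase values was not tested. Mitochondrially encoded transcripts took 3.21% to 3.74% of all TPM in EpiLCs and 2.47% to 2.95% in ESCs. Rescaling without them left the counts of helicase genes given below at the same values.

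Most helicase genes were moderately higher in EpiLCs, and a few were lower, of which Dhx16 had the largest difference. The members together took 0.417%, 0.436% and 0.432% of all TPM in the EpiLC libraries, against 0.344%, 0.346% and 0.335% in the ESC libraries. Their summed level was 4284 ± 98.2 TPM in EpiLCs and 3420.0 ± 57.4 TPM in ESCs (SD, n = 3 each), 25.3% higher. Groups of 3 against 3 do not allow an exact two-sided permutation test to go below p = 0.10, which is the value found for this sum. In a bulk sample, more cells of a kind and more RNA per cell cannot be told apart.

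Of the 52 members, 49 had a mean of at least 1 TPM and were tested. With limma's moderated test and Benjamini-Hochberg adjustment over all 14036 tested genes, 33 members (67.3%) rose and 6 (12.2%) fell at an adjusted p under 0.05. Over all tested genes, 36.1% rose and 30.9% fell, 66.9% in either direction. The family was chosen with results of these libraries known, so its counts describe the members and are no independent evidence of a direction. The median difference was 0.39 for the 49 members and 0.04 for all tested genes. Few changes were large, and 4 called members (8.16%) differed 2-fold or more in mean TPM, against 24.5% of all tested genes. These were Ddx25 and Ddx21 upward and Dhx16 and Ddx19b downward. Ddx25 reached the mean of 1 TPM only through its EpiLC libraries. The libraries of the states did not overlap for 41 members (83.7%), against 71.5% of all tested genes. Among members of at least 10 TPM, 30 of 44 rose and 5 fell, where 38.6% of all tested genes that abundant rose and 32.5% fell. At that abundance, 3 members (6.82%) were called and differed 2-fold or more, against 15.7% of tested genes, a smaller contrast than over all levels.

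**Figure D1:**
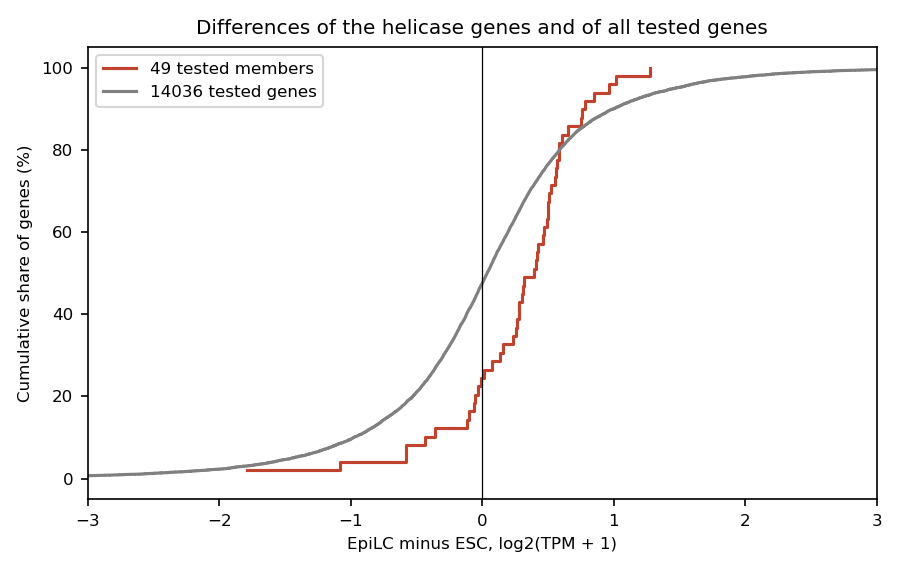
Cumulative share of genes (vertical, %) by EpiLC minus ESC difference (horizontal, log2(TPM + 1)) for the 49 tested members and for all 14036 tested genes, with the horizontal axis limited to the range -3 to 3. The members' curve lies to the right of that of all genes through the middle of the range, with medians of 0.39 and 0.04, and above it at the largest rises, since no tested member rose by more than 1.28.

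By name class, of 34 tested Ddx genes, 27 (79.4%) rose and 3 (8.82%) fell, with a median of 0.42. Of 15 tested Dhx genes, 6 (40%) rose, 3 (20%) fell and 6 did not pass, with a median of 0.07. The shares of all tested genes were 36.1% and 30.9%, with a median of 0.04, so the share of Dhx genes that rose was near that level. The difference between the classes was not tested. Summed Ddx levels were 3321 ± 81.9 TPM in EpiLCs and 2433 ± 43.9 TPM in ESCs. The Dhx sum was 963 ± 16.4 TPM in EpiLCs and 987 ± 34.0 TPM in ESCs (exact two-sided permutation test p = 0.40). Without Dhx16, the Dhx sum was 877 ± 28.4 TPM in EpiLCs and 688 ± 6.34 TPM in ESCs.

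**Figure D2:**
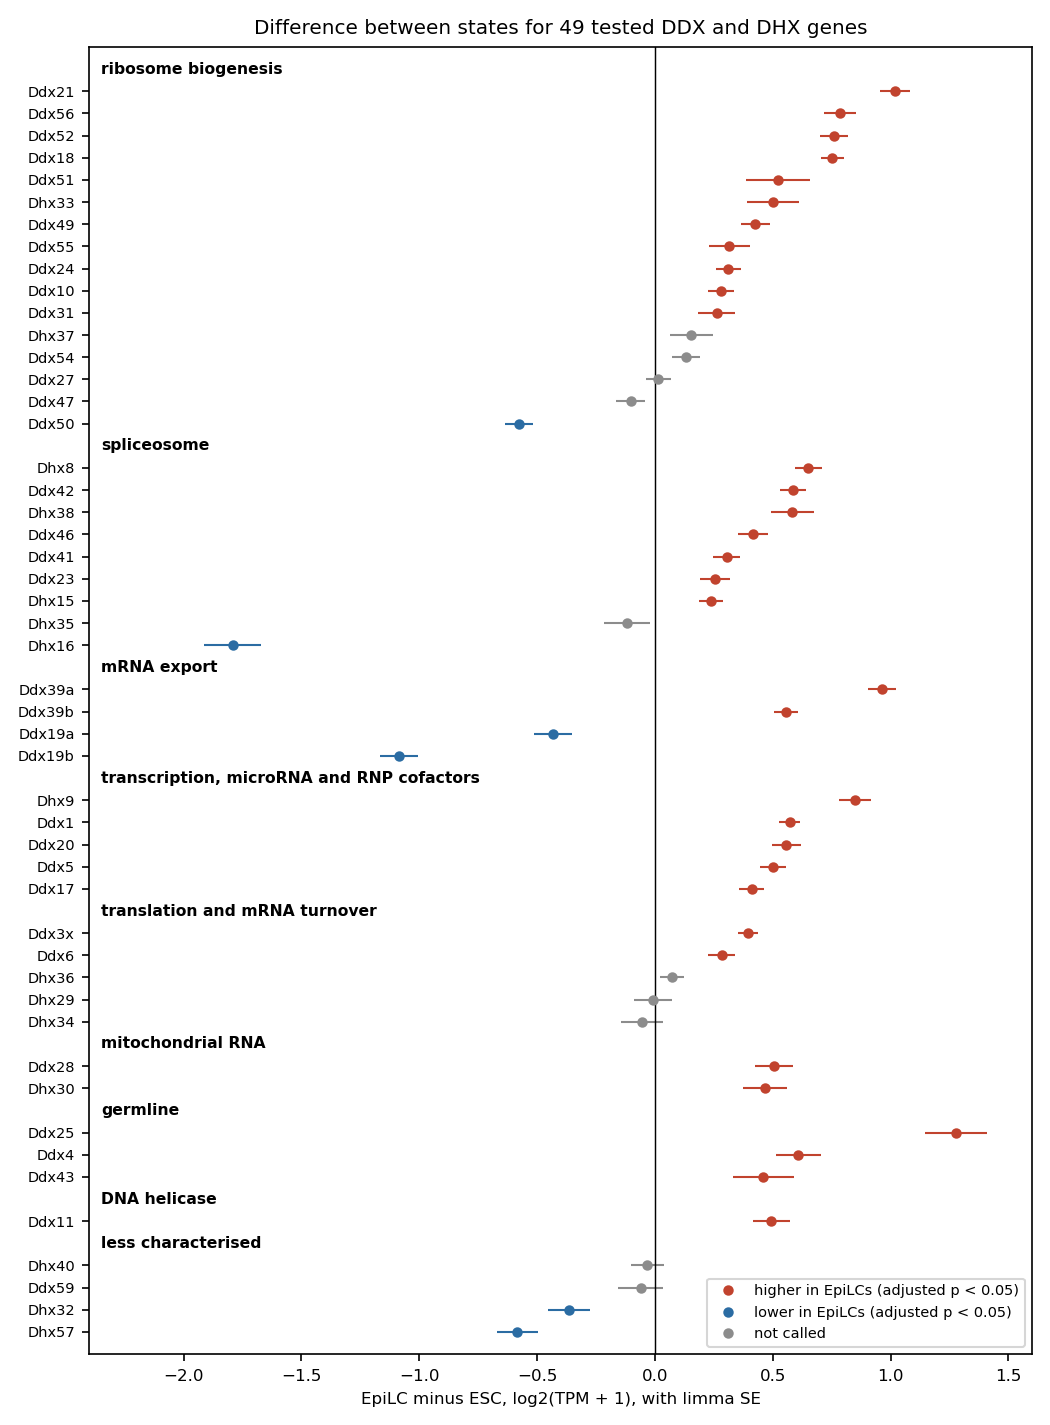
EpiLC minus ESC difference (horizontal, log2(TPM + 1)) of each of the 49 tested members, with the limma SE as a bar, grouped by the role given to each gene. Red points rose, blue points fell and grey points did not pass at an adjusted p of 0.05. Dhx16 is farthest to the left at -1.79 and Ddx25 farthest to the right at 1.28.

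Helicases of ribosome assembly work mostly in the nucleolus, where they fold and release ribosomal RNA and its guide RNAs. Of 16 such members, 11 (68.8%) rose, 1 (6.25%) fell and 4 did not pass, where 36.1% of all tested genes rose and 30.9% fell. The median was 0.31 for these members and 0.04 for all tested genes. The summed level of the 16 members was 1039.9 ± 27.1 TPM in EpiLCs and 777 ± 9.46 TPM in ESCs. Ddx21, a nucleolar helicase tied to ribosomal RNA transcription and processing, was at 190.2, 215 and 214 TPM in the EpiLC libraries, against 97.6, 107 and 99.5 TPM in the ESC libraries. It was 2.04-fold higher in EpiLCs by the means (log2 fold change 1.02, SE 0.06, adjusted p by limma = 6.4e-06), and no library of one state reached the other. Ddx18, another nucleolar helicase, was at 172, 181 and 174 TPM in the EpiLC libraries, against 107, 100.02 and 105 TPM in the ESC libraries (log2 fold change 0.75, SE 0.05, adjusted p by limma = 6.2e-06). Ddx56, which serves assembly of the large subunit, had 86.6, 79.4 and 86.1 TPM in the EpiLC libraries, against 51.9, 45.2 and 48.2 TPM in the ESC libraries. Its difference was 0.78, and it stood at rank 15 of the 52 members in EpiLCs and rank 26 in ESCs. Ddx52, whose yeast counterpart Rok1 acts in small subunit assembly, was at 32.97, 34.5 and 32.6 TPM in the EpiLC libraries, against 19, 19.5 and 19.3 TPM in the ESC libraries (log2 fold change 0.76). Both had separate groups, with a limma adjusted p of 3.0e-05 for Ddx56 and 1.8e-05 for Ddx52.

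The other nucleolar members that rose did so by less. Ddx51, Dhx33, Ddx49, Ddx55, Ddx24, Ddx10 and Ddx31 had differences between 0.26 for Ddx31 and 0.52 for Ddx51. Ddx51 was the most variable of them, at 13.1, 10.2 and 14.8 TPM in the EpiLC libraries, against 8.13, 9.40 and 7.87 TPM in the ESC libraries. Ddx31 passed by a narrow margin (adjusted p by limma = 0.018), and the call was lost without EpiLC replicate 3 (adjusted p = 0.055), without ESC replicate 1 (0.067) and with median-of-ratios scaling (0.073). Ddx27, Ddx54, Dhx37 and Ddx47 did not pass. Ddx27 was at 89.7 ± 3.37 TPM in EpiLCs and 88.8 ± 3.59 TPM in ESCs. Ddx47 was at 77.6 ± 1.79 TPM in EpiLCs and 83.6 ± 5.64 TPM in ESCs, and it passed as lower only with median-of-ratios scaling (log2 fold change -0.18, adjusted p by limma = 0.032, and 0.032 to 0.43 over all alternatives).

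Ddx50 was the nucleolar member that fell. It is the closest paralogue of Ddx21, and the genes lie next to each other among the protein-coding genes of chromosome 10. Ddx50 was at 41.97, 47.4 and 43.6 TPM in the EpiLC libraries, against 66.8, 66.1 and 66.8 TPM in the ESC libraries. All its EpiLC libraries lay below all ESC libraries (log2 fold change -0.58, SE 0.06, adjusted p by limma = 7.7e-05). The neighbours thus moved in opposite directions. Ddx21 took 81.9%, 82.0% and 83.1% of the TPM of the pair in the EpiLC libraries, against 59.4%, 61.8% and 59.8% in the ESC libraries. The share was 82.3 ± 0.664% in EpiLCs and 60.3 ± 1.31% in ESCs (SD, n = 3 each, exact two-sided permutation test p = 0.10, the smallest possible, and 0.17 adjusted over 5 pairs).

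Promoter sequences of these neighbours are shown because they differ in direction while sharing a place in the genome. They are the bases before the annotated start that overlap no annotated exon, from RefSeq for build GRCm38.p6, minus strand, at chr10:62602299-62602349 for Ddx21 and chr10:62651219-62651468 for Ddx50. The values were made on build GRCm39, per the submitters' processing notes, so these coordinates are those of the sequence table only. Capitals mark matches, on either strand, to CCAAT, to GGGCGG (a GC box) and to CCGGAAG (a motif bound by ETS factors). The Ddx21 stretch holds none of them in its 51 bases, and the Ddx50 stretch holds 2 CCAAT boxes, 1 GC box and 1 ETS motif in its 250 bases. Only exact matches were counted, and the shorter stretch has fewer places for one, so these counts do not show that the promoters differ.
Ddx21: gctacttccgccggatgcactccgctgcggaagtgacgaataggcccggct
Ddx50: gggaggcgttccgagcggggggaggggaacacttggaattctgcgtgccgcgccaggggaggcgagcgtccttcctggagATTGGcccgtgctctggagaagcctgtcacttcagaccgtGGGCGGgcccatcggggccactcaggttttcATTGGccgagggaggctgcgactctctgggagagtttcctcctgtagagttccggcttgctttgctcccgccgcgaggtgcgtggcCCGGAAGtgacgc

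Spliceosomal helicases each drive a particular step of intron removal. Of 9 members, 7 (77.8%) rose, Dhx16 fell and Dhx35 did not pass, where 36.1% of all tested genes rose and 30.9% fell. The median was 0.30 for these members and 0.04 for all tested genes. Dhx16, the counterpart of yeast Prp2, which remodels the spliceosome before the first cleavage, was at 97.4, 71.6 and 88.8 TPM in the EpiLC libraries, against 338, 286 and 273 TPM in the ESC libraries. It had the largest fall of any tested member (log2 fold change -1.79, SE 0.12, adjusted p by limma = 9.3e-06), 3.48-fold lower in EpiLCs by the means. The highest EpiLC library lay far below the lowest ESC library. Dhx16 ranked 13 among the members in EpiLCs and 2 in ESCs, where only Ddx5 was more abundant.

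The 7 spliceosomal members that rose had smaller differences. Dhx8, the counterpart of yeast Prp22, which releases the spliced RNA, was at 49.7, 49.9 and 50.9 TPM in the EpiLC libraries, against 31.5, 33.2 and 30.2 TPM in the ESC libraries (log2 fold change 0.65, SE 0.06, adjusted p by limma = 3.4e-05). Ddx42, found with the U2 particle, rose by 0.59 and Dhx38, the counterpart of Prp16, by 0.58. Ddx46, the counterpart of Prp5, rose by 0.42, and Ddx41 and Ddx23, the counterpart of Prp28, by 0.30 and 0.25. Dhx15, the counterpart of Prp43 that takes spent spliceosomes apart, was the most abundant of these 7, at 234 ± 12.8 TPM in EpiLCs and 198 ± 4.45 TPM in ESCs, and rose by 0.24. Dhx35 was at 17.7 ± 1.62 TPM in EpiLCs and 19.3 ± 1.82 TPM in ESCs. The summed level of the spliceosomal members was 677 ± 7.29 TPM in EpiLCs and 765 ± 38.6 TPM in ESCs. Without Dhx16 it was 591 ± 18.8 TPM in EpiLCs and 467 ± 12.8 TPM in ESCs, so that the direction of the sum turned on that gene.

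The protein-coding genes around Dhx16 on chromosome 17, looked up after its values were seen, moved by less and in both directions. Ppp1r18, next to it on one side, rose by 0.53, and 2310061I04Rik, next on the other, did not pass, at a difference of -0.13. Farther out, Nrm fell by 0.61 and Atat1 by 1.15 on the log2 scale, while Mrps18b rose by 0.43 and Mdc1 did not pass, at -0.05. The Dhx16 promoter is shown as that of the tested member with the largest fall, at chr17:35879528-35879777 (GRCm38.p6, plus strand). It holds 1 GC box, read on the opposite strand as CCGCCC, and 1 ETS motif, both in capitals.
Dhx16: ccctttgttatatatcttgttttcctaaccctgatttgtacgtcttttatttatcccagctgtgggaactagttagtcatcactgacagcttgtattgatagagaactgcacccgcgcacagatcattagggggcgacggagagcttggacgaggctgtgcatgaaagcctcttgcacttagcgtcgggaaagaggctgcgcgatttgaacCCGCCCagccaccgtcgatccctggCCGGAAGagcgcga

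**Figure D3:**
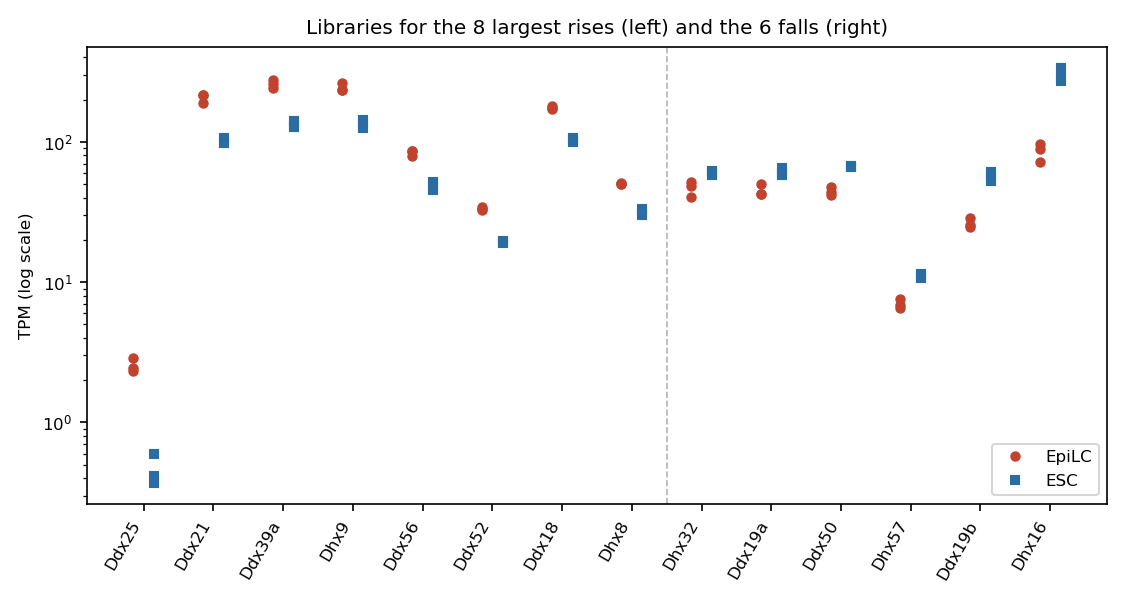
TPM (vertical, log scale) in each library for the 8 members with the largest rise, left of the dashed line, and the 6 that fell, right of it. Each red circle is an EpiLC library and each blue square an ESC library. The groups do not overlap for any of these 14 genes, and Dhx16, at the far right, shows the widest gap among the genes that fell.

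Export helicases split by family. Ddx39b (UAP56) and its paralogue Ddx39a (URH49) load export factors onto spliced mRNA, and both rose. Ddx39a was at 244, 276 and 260.3 TPM in the EpiLC libraries, against 130.2, 139.99 and 128 TPM in the ESC libraries (log2 fold change 0.96, SE 0.06, adjusted p by limma = 5.9e-06). Ddx39b was at 286, 289 and 308 TPM in the EpiLC libraries, against 209, 195 and 195 TPM in the ESC libraries (log2 fold change 0.56, SE 0.05, adjusted p by limma = 3.7e-05). Groups were separate for both genes. Ddx39a held 46.1%, 48.8% and 45.8% of the TPM of the pair in the EpiLC libraries, against 38.4%, 41.8% and 39.5% in the ESC libraries (46.9 ± 1.66% in EpiLCs and 39.9 ± 1.73% in ESCs, SD, n = 3 each, exact two-sided permutation test p = 0.10, 0.17 adjusted over 5 pairs). The antisense neighbour Adgre5, which fell by 2.84, shares 17.4% of the exonic bases of Ddx39a in GENCODE M21 models.

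Ddx19a and Ddx19b, counterparts of yeast Dbp5, strip proteins from mRNA as it leaves the nuclear pore. Both fell. Ddx19b was at 28.7, 24.9 and 25.7 TPM in the EpiLC libraries, against 57.5, 61.3 and 52.8 TPM in the ESC libraries (log2 fold change -1.09, SE 0.08, adjusted p by limma = 1.3e-05). Ddx19a had 42.5, 49.8 and 42.8 TPM in the EpiLC libraries, against 60.01, 65.3 and 57.9 TPM in the ESC libraries (log2 fold change -0.43, SE 0.08, adjusted p by limma = 0.0018). Every EpiLC library lay below every ESC library for each gene. The share of Ddx19a in the pair was 59.7%, 66.7% and 62.5% in the EpiLC libraries, against 51.1%, 51.6% and 52.3% in the ESC libraries (63.0 ± 3.50% in EpiLCs and 51.7 ± 0.622% in ESCs, SD, n = 3 each, exact two-sided permutation test p = 0.10, 0.17 adjusted over 5 pairs). Close paralogues such as these, Ddx39a and Ddx39b, or Ddx3x and Ddx3y share sequence, so reads could be split between them and their separate values are uncertain.

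The Ddx19 genes are also neighbours, on chromosome 8, and their promoters are shown because they fell together. The fall was not particular to the pair among nearby protein-coding genes. Aars1, Cog4 and Fcsk fell too, at differences of -0.45, -0.50 and -0.91, while St3gal2, next to Ddx19a, rose by 0.51. The stretches lie on the minus strand of GRCm38.p6 at chr8:110997824-110998073 for Ddx19a and chr8:111031752-111032001 for the outermost of the start sites of Ddx19b. Ddx19a holds 1 GC box and Ddx19b 2 CCAAT boxes, in capitals, and they share none of the motifs searched.
Ddx19a: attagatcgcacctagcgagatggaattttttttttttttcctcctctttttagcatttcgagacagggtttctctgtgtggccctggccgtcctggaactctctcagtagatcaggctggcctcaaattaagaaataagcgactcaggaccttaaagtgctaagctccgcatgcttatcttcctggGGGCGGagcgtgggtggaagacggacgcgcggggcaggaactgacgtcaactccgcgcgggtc
Ddx19b: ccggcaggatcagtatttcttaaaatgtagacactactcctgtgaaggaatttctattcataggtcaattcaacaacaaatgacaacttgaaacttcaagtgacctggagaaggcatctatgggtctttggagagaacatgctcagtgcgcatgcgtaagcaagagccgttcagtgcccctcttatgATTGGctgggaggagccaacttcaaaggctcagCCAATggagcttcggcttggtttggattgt

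**Figure D4:**
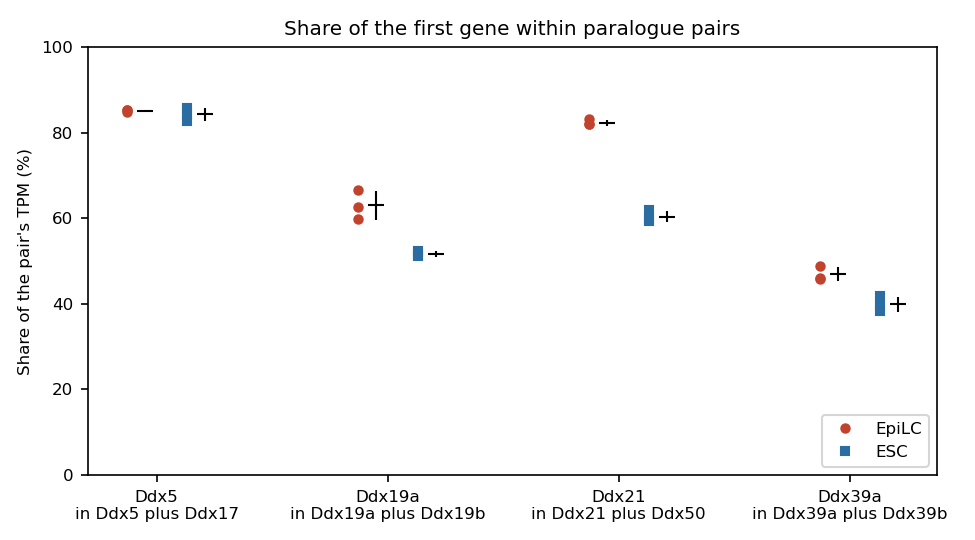
Share of the first named gene in the summed TPM of its pair (vertical, %), for each EpiLC library (red circles) and ESC library (blue squares), with the mean and SD of 3 libraries beside them in black. Ddx21 stands at 82.3% in EpiLCs and 60.3% in ESCs, the widest gap of the 4 pairs, and the shares of Ddx5 overlap.

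All 5 members that act as cofactors of transcription, microRNA processing or small RNPs rose, with a median of 0.56. Among all tested genes 36.1% rose, with a median of 0.04. The sum of the 5 members was 1130.2 ± 31.5 TPM in EpiLCs and 754 ± 11 TPM in ESCs. Ddx5 (p68), a cofactor of transcription and of the microRNA-processing complex, was the most abundant member in both states, at 485, 521 and 493 TPM in the EpiLC libraries, against 331, 375 and 352 TPM in the ESC libraries (log2 fold change 0.50, SE 0.06, adjusted p by limma = 1.2e-04). Its paralogue Ddx17 (p72) was at 86.98, 90.4 and 85.5 TPM in the EpiLC libraries, against 68.7, 62.5 and 66.1 TPM in the ESC libraries (log2 fold change 0.41, SE 0.05, adjusted p by limma = 3.0e-04). Groups were separate for both, and the share of Ddx5 in the pair was 85.1 ± 0.241% in EpiLCs and 84.2 ± 1.46% in ESCs (SD, n = 3 each, exact two-sided permutation test p = 0.40, 0.50 adjusted over 5 pairs). Both microprocessor genes rose too, Drosha by 0.70 and Dgcr8 by 0.63 (adjusted p by limma = 0.020), though Dgcr8 did not pass without EpiLC replicate 1 (adjusted p = 0.054), without EpiLC replicate 3 (0.069) or with no filter on low values (0.063).

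Dhx9 (RNA helicase A), which resolves RNA structures during transcription and processing, was at 236, 236 and 262 TPM in the EpiLC libraries, against 138, 125 and 143 TPM in the ESC libraries (log2 fold change 0.85, SE 0.07, adjusted p by limma = 1.9e-05). Ddx1, the helicase of the tRNA ligase complex, was at 249, 267 and 261 TPM in the EpiLC libraries, against 177, 169 and 176 TPM in the ESC libraries (log2 fold change 0.57, SE 0.05, adjusted p by limma = 2.0e-05). Of 5 partners in that complex, 3 (60%) rose and 2 did not pass, where 36.1% of all tested genes rose. Fam98b, Fam98a and Zbtb8os (archease) rose by 0.81, 0.80 and 0.67, while the ligase gene Rtcb was at 153 ± 6.23 TPM in EpiLCs and 147 ± 0.938 TPM in ESCs. Ddx20 (Gemin3) is part of the SMN complex, which assembles spliceosomal small RNPs. It was at 37.9, 41.4 and 38.2 TPM in the EpiLC libraries, against 26.3, 27.1 and 25.5 TPM in the ESC libraries (log2 fold change 0.56, SE 0.06, adjusted p by limma = 1.2e-04). Of 8 other SMN complex genes, 7 (87.5%) rose and 1 (12.5%) fell, against 36.1% and 30.9% of all tested genes. The median of these 8 genes was 0.57. Gemin4 rose by 1.52, with 32.1 ± 0.907 TPM in EpiLCs and 10.7 ± 2.17 TPM in ESCs, Gemin5 by 0.96 and Gemin6 by 0.63. Gemin2 was the gene that fell, at 41.7 ± 0.714 TPM in EpiLCs and 61.2 ± 0.741 TPM in ESCs, and is named after its values were seen.

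Of 5 tested members that act in translation or mRNA turnover, 2 (40%) rose and 3 did not pass, with a median of 0.07. Among all tested genes 36.1% rose, with a median of 0.04. Ddx3x, the X-linked helicase that helps structured mRNAs start translation, was the member with the highest level after Ddx5 in EpiLCs, at 369, 356 and 384 TPM in the EpiLC libraries, against 273, 288 and 282 TPM in the ESC libraries (log2 fold change 0.39, SE 0.04, adjusted p by limma = 1.2e-04). Its Y-linked paralogue Ddx3y was listed at 0 in EpiLC replicate 1 and in ESC replicates 1 and 3 and reached 0.252 TPM in EpiLC replicate 2 and 0.382 TPM in ESC replicate 2, so it was not tested. Ddx6, the decapping and translational repression helicase of P-bodies, was at 95.8, 105 and 104 TPM in the EpiLC libraries, against 81.2, 86.9 and 82.2 TPM in the ESC libraries (log2 fold change 0.28, SE 0.06, adjusted p by limma = 0.0027). Dhx36, which unwinds G-quadruplexes, was at 51.6 ± 2.01 TPM in EpiLCs and 48.97 ± 0.240 TPM in ESCs and Dhx29, which scans structured leaders with the ribosome, at 28.98 ± 2.04 TPM in EpiLCs and 29.1 ± 2.06 TPM in ESCs. Dhx34, a factor of nonsense-mediated decay, was at 7.65 ± 0.498 TPM in EpiLCs and 7.98 ± 0.399 TPM in ESCs. Limma adjusted p was 0.26 for Dhx36, 0.94 for Dhx29 and 0.62 for Dhx34, which does not show that they were equal.

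Among 12 decapping and P-body partners of Ddx6, 5 (41.7%) rose and 3 (25%) fell, with a median of 0.06. These shares lie near the 36.1% and 30.9% of all tested genes. Patl2 fell by 1.26 on the log2 scale and Patl1, its widely expressed relative, by 0.57. The decapping cofactor gene Dcp1b rose by 0.71. The binding partner Lsm14b rose, at 78.5 ± 1.14 TPM in EpiLCs and 53.6 ± 1.21 TPM in ESCs, and is named after its values were seen.

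Both mitochondrial members rose, where 36.1% of all tested genes did. Ddx28, which serves mitochondrial ribosome assembly, was at 11.9, 12.5 and 11.7 TPM in the EpiLC libraries, against 8.67, 7.77 and 8.16 TPM in the ESC libraries (log2 fold change 0.50, SE 0.08, adjusted p by limma = 8.8e-04). Dhx30, which acts in the same process, was at 85.5 ± 9.93 TPM in EpiLCs and 61.4 ± 4.61 TPM in ESCs and rose by 0.47. Ddx11, a DNA helicase of sister chromatid cohesion and the member that acts mainly on DNA, was at 19.9, 20.4 and 18.5 TPM in the EpiLC libraries, against 14.5, 13.5 and 12.9 TPM in the ESC libraries (log2 fold change 0.49, SE 0.08, adjusted p by limma = 7.3e-04). Groups were separate for each of these genes.

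All 3 germline members rose, at low or moderate levels, where 36.1% of all tested genes rose and 30.9% fell. Ddx25, a testis helicase required for sperm formation, was at 2.44, 2.86 and 2.32 TPM in the EpiLC libraries, against 0.371, 0.598 and 0.414 TPM in the ESC libraries. It had the largest rise of any tested member (log2 fold change 1.28, SE 0.13, adjusted p by limma = 7.8e-05). The size depends on the added constant, reaching 2.25 with a pseudocount of 0.1. With an ESC mean of 0.461 TPM, Ddx25 passed the filter of 1 TPM only through its EpiLC libraries, where it was high. Its place as the largest rise holds only among genes that the filter kept, which leaves out Ddx60 and Dhx58. Ddx4, the Vasa helicase of germ cells, was at 26.2, 28.6 and 23.4 TPM in the EpiLC libraries, against 15.5, 18.1 and 16.6 TPM in the ESC libraries (log2 fold change 0.61, SE 0.09, adjusted p by limma = 7.0e-04). Ddx43, a helicase known from testis and tumours, was at 4.22, 3.93 and 3.75 TPM in the EpiLC libraries, against 2.16, 3.13 and 2.60 TPM in the ESC libraries. Its rise of 0.46 passed at a limma adjusted p of 0.014 and was lost when ESC replicate 1 was left out (0.36, adjusted p = 0.0502). Over the alternatives, its adjusted p lay between 0.0079 and 0.0502. Most other germ cell markers went the other way. The 6 germ cell markers, Ddx4 included, summed to 67.8 to 94.7 TPM in EpiLC libraries and 143 to 224 TPM in ESC libraries, and 4 of the 6 fell, among them Dazl, Tfap2c and Nanos3. The part of that marker set in the helicase values was not tested.

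The Ddx25 promoter is shown as that of the tested member with the largest rise, a stretch of 66 bases at chr9:35558529-35558594 (GRCm38.p6, minus strand) that ends 59 bases before the annotated start. It holds 2 GC boxes, in capitals, which run into each other.
Ddx25: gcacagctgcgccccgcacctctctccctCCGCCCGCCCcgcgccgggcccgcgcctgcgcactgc

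Both innate RNA sensing members had a mean under 1 TPM over all 6 libraries and were not tested, though Ddx60 averaged 1.33 TPM in EpiLCs. Ddx60, an interferon-induced helicase, was at 1.20, 0.567 and 2.21 TPM in the EpiLC libraries, against 0.0498, 0.0552 and 0.0448 TPM in the ESC libraries. Dhx58 (LGP2), a relative of the viral RNA sensor RIG-I that lacks its signalling domain, was at 0.612, 1.16 and 0.945 TPM in the EpiLC libraries, against 0.259, 0.273 and 0.335 TPM in the ESC libraries. All EpiLC libraries lay above all ESC libraries for both genes. Among 11 genes of RIG-I-like receptor signalling, 6 were tested. Of these, 3 (50%) rose and 3 (50%) fell, against 36.1% and 30.9% of all tested genes. Oasl2, an interferon-induced gene, was at 4.08, 1.63 and 6.09 TPM in the EpiLC libraries, against 0.0873, 0.104 and 0.0716 TPM in the ESC libraries (log2 fold change 2.07, adjusted p by limma = 7.6e-04), lowest among EpiLCs in replicate 2, as Ddx60 was. The ubiquitin ligase gene Trim25 fell by 1.35 on the log2 scale. Interferon-induced Ifit1 and Isg15 were at most 0.195 TPM in any library. Rigi was at 4.67 ± 1.69 TPM in EpiLCs and 3.45 ± 0.134 TPM in ESCs and did not pass (adjusted p by limma = 0.26).

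Of only 4 less characterised members, 2 (50%) fell and 2 did not pass, where 30.9% of all tested genes fell and 36.1% rose. Dhx57 was at 6.89, 7.60 and 6.56 TPM in the EpiLC libraries, against 10.7, 11.4 and 10.9 TPM in the ESC libraries (log2 fold change -0.58, SE 0.09, adjusted p by limma = 6.1e-04). Dhx32 was at 48.4, 51.5 and 40.5 TPM in the EpiLC libraries, against 60.7, 61.9 and 58.2 TPM in the ESC libraries (log2 fold change -0.36, SE 0.09, adjusted p by limma = 0.0074). Groups were separate for both. Ddx59 was at 11.4 ± 1.27 TPM in EpiLCs and 11.8 ± 0.297 TPM in ESCs and Dhx40 at 34.4 ± 2.50 TPM in EpiLCs and 35.1 ± 1.05 TPM in ESCs, without passing. Gene models of Dhx57 and Dhx32 share 2.23% and 4.89% of exonic bases with Morn2 and Bccip on the opposite strand. Ddx49 shares 29.8% with Homer3. Morn2 and Homer3 had differences of -0.62 and 0.55, in the direction of Dhx57 and Ddx49. Bccip, at 0.30, went the other way from Dhx32. Whether these genes contribute to the members' values was not tested. The libraries kept strand, and the sources used here do not say whether the quantification used it.

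Cofactors and relatives of the helicases were mixed. As background, 36.1% of all tested genes rose and 30.9% fell, with a median of 0.04. G-patch proteins activate DEAH-box helicases, and of 20 such genes 11 rose, 3 fell and 6 did not pass, with a median of 0.23. Rbm10, a splicing regulator, was at 61.3 ± 4.09 TPM in EpiLCs and 18.5 ± 2.78 TPM in ESCs (log2 fold change 1.68), and Aggf1 and Nkrf rose by 1.58 and 1.28. Of 15 partners in export (TREX and the pore factors of Ddx19), 8 rose and 2 fell, with a median of 0.23. Thoc1 rose by 0.81 and the pore protein gene Nup42 by 0.62, and Zc3h11a fell by 0.66 on the log2 scale. Of 20 tested helicases outside the name pattern, 9 (45%) rose and 5 (25%) fell, with a median of 0.17, which is not far from that background. Mov10, a helicase of RNA silencing, was at 36.9, 33.9 and 29.03 TPM in the EpiLC libraries, against 129.5, 120.3 and 130.1 TPM in the ESC libraries (log2 fold change -1.90, SE 0.09, adjusted p by limma = 1.5e-06). Dicer1, the microRNA-producing nuclease, was at 89.8 ± 5.91 TPM in EpiLCs and 44.9 ± 3.07 TPM in ESCs and rose by 0.99.

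Promoter windows of 250 bases before and 50 bases after the start (RefSeq, GRCm38.p6) were found for 46 of the 52 members, 57 windows in all. The ETS motif CCGGAAG, on either strand, was in 36.8% of these windows, in 17.6% of the windows of tested genes and in 8.86% of all 32851 windows. Counts by direction are of genes with a match in any of their windows, so they are not on the scale of the window shares. The ETS motif was in 10 of 28 members that rose, 2 of 6 that fell and 7 of 10 that did not pass. The E-box CACGTG was in 12.3% of the members' windows, 10.1% of those of tested genes and 7.15% of all, in 5 of 28 members that rose, 0 of 6 that fell and 2 of 10 that did not pass. The GC box GGGCGG was in 57.9%, 63.1% and 35.7%, CCAAT in 45.6%, 38.7% and 37.4%, and the NRF1 motif, searched as 1 exact palindrome, in 5.26%, 1.99% and 0.971% of members' windows, windows of tested genes and all windows. CACGTG reads the same on both strands. These matches describe the sequences and are not binding sites.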

How the data were processed

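RNA-seq was measured in 3 EpiLC and 3 ESC libraries. The authors deposited 1 table of TPM values, with 1 column per library. FastQC, Trim Galore, STAR and Salmon and build mm39/GRCm39 were used per the submitters' processing notes. Versions and annotation release are not given in the sources used here. Each column sums to 1000000 TPM, so depth is unknown and no count model was used. A few abundant genes can shift all other TPM values.

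In R 4.3.3, lmFit and eBayes (with trend) of limma 3.58.1 compared log2(TPM + 1) of the 14036 genes whose mean reached 1 TPM, with two-sided p-values adjusted over these genes by Benjamini-Hochberg. The code was tested on simulated data. Sums and shares were compared with exact permutation tests over libraries. Tables were handled in Python 3.11.15 with pandas 2.3.3 and scipy 1.17.1.

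Members, role lists, partner lists and tests were chosen with earlier results of these data known. Named members are the 8 largest rises, up to 8 largest falls (6 were called), the 8 most abundant, both genes of 5 pairs, the largest change in each role and members under the filter that reach 0.5 TPM. Up to 3 called genes are named per partner list. All other members are given in short. GENCODE M21 (GRCm38) gave chromosomes, neighbours and exon overlap by gene identifier, with all 52 members matched, and no coordinates of it are printed. Alternatives were other pseudocounts, filters and scalings, no variance trend, a replicate block and leaving out each library.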

Additional observations from a re-analysis of the deposited data

How the results depend on the processing

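The counts of 33 members higher and 6 lower in EpiLCs changed little. Over the alternatives the higher count ran from 31 (without ESC replicate 1, and with a filter at 5 TPM) to 35 (with no filter, where Ddx60 and Dhx58 were added) and the lower count from 6 to 7 (median-of-ratios scaling). Leaving out 1 library gave 31 to 33 higher and 6 lower. Of the 49 members fitted, 46 kept their call and direction in every alternative that included them, and Ddx31, Ddx43 and Ddx47 did not. The difference in summed TPM, 864 in the deposited values, was 648 with median-of-ratios scaling, a scaling that lowers the median of all tested genes to -0.03 against 0.04, and lay between 825 and 919 without any 1 library. Shares in pairs differed by 21.5 to 22.7 percentage points for Ddx21, 9.46 to 12.9 for Ddx19a, 6.04 to 7.94 for Ddx39a and 0.110 to 1.57 for Ddx5 without any 1 library. Same-numbered libraries of both states had correlated deviations from their group means (0.10, 0.14 and 0.065 across genes for replicates 1, 2 and 3), and each library correlated best with its own number, but 1 pair was under 0.1, so the numbers were not taken as pairing. With replicate number as a block the member counts were 33 and 6, and 9612 genes were called in place of 9397. TPM keeps no depth, so counting error behind low values such as those of Ddx3y, Ddx60 and Dhx58 is unknown.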

Other observations

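The translation helicases of the Eif4a family are DEAD-box proteins whose gene names fall outside the pattern, and their values were looked at after the other helicases. Eif4a1, the main helicase of cap-dependent initiation, was at 2222, 2198 and 2153 TPM in the EpiLC libraries, against 1516, 1415 and 1496 TPM in the ESC libraries (log2 fold change 0.57, SE 0.04, adjusted p by limma = 1.1e-05). Its paralogue Eif4a2 was at 595, 647 and 531 TPM in the EpiLC libraries, against 1025, 945 and 1014 TPM in the ESC libraries (log2 fold change -0.75, SE 0.07, adjusted p by limma = 5.6e-05). The paralogues moved in opposite directions with separate groups. Eif4a3, the helicase of the exon junction complex, rose by 0.47, with 242 ± 7.15 TPM in EpiLCs and 175 ± 5.26 TPM in ESCs. Eif4a1 thus lay above every member in both states, on the TPM scale.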
